A study of Homo sapiens with 6 samples.

Results

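Cholesterol synthesis and uptake genes were followed in HepG2, a human hepatoma cell line that keeps many functions of hepatocytes, after treatment with the leaf water extract of Barringtonia racemosa. The 30 genes were listed by their known role, at a time when earlier results of these data were known. Of these, 28 had a transcript cluster of their own on the array, out of 18372 genes tested. FDFT1, the squalene synthase, had no such cluster among the values used here, and the cluster of HSD17B7 is shared with the pseudogene HSD17B7P2, so neither was analysed. The leaf-treated group held 3 arrays from cells given 50 µg/ml of the extract for 24 h, and the untreated group held 3 arrays from cells without it. The labels name no other agent, and for the untreated cells they give no vehicle and no time. The cells of both groups grew in medium with foetal bovine serum. All arrays come from a single cell line, and the RNA was taken from whole cultures, where a change in the share of cells and a change in RNA per cell cannot be told apart.

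Cells build cholesterol from acetyl-CoA in the cytosol and endoplasmic reticulum. Acetyl-CoA is converted to HMG-CoA and mevalonate, mevalonate to isoprenoid units that are joined to squalene, and squalene is closed to lanosterol, which further enzymes trim to cholesterol. The transcription factor SREBP2, encoded by SREBF2, controls these genes as a group. When membranes hold enough sterol, SCAP and INSIG proteins keep SREBP2 in the endoplasmic reticulum, and when sterol is low SCAP carries it to the Golgi, where it is cleaved and released to the nucleus. The liver is a main site of this synthesis and also takes up, stores and secretes cholesterol.

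The 250 bases upstream of annotated gene starts are shown for SREBF2 and for MVD, HMGCS1, IDI1 and NPC1, the members with such a window whose groups of arrays did not overlap. The sequences were taken from RefSeq (GRCh38.p14), run 5′ to 3′ on the strand of the gene and end at the base before its start. Capitals mark CCAAT boxes, which bind the factor NF-Y (CCAAT, or ATTGG on the other strand), and in SREBF2 the sterol regulatory element (TCACNCCAC on either strand), the type of site that SREBP2 binds.
SREBF2, chr22:41832855-41833104, plus strand: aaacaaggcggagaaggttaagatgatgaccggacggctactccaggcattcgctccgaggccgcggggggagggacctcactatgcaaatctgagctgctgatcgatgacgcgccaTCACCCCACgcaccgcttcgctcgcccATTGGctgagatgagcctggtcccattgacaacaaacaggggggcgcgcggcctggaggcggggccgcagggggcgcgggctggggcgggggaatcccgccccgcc
MVD, chr16:88663092-88663341, minus strand: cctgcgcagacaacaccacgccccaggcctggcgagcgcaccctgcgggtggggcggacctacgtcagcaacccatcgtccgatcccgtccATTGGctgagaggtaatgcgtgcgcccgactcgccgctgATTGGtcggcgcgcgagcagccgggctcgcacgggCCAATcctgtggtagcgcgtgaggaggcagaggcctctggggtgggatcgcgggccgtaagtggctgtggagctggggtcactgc
HMGCS1, chr5:43313413-43313662, minus strand: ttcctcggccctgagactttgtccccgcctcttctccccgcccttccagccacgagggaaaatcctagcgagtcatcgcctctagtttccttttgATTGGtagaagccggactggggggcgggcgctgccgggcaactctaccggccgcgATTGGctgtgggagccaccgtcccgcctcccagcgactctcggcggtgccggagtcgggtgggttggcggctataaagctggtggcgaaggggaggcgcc
IDI1, chr10:1049120-1049369, minus strand: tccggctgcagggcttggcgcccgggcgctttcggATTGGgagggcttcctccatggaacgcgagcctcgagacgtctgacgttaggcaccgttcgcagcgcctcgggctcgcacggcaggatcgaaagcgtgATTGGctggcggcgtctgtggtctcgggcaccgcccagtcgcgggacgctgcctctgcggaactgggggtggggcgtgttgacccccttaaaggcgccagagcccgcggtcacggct
NPC1, chr18:23586507-23586756, minus strand: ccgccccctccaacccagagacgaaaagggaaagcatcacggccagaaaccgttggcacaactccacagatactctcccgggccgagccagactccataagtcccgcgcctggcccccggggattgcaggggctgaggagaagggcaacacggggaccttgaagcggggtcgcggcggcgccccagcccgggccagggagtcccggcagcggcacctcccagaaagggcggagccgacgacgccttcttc

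HMGCS1 and IDI1 have further annotated starts, and which of them these cells use was not measured. The sterol regulatory element of SREBF2 lay at -133 from the start and its CCAAT box at -106. Among 25 listed genes with at least 1 window, the CCAAT box was found in 20 (80%) and the GC box GGGCGG, on either strand, in 22 (88%). Over all 27305 genes with such windows the shares were 37.0% and 46.2%. The strict element TCACNCCAC was found in 1 of the 25, SREBF2, and in 1.09% of all genes. Overlapping matches were counted, and a match describes these letters and not a bound site. In the windows shown, NPC1 has no CCAAT box, MVD has 3, and HMGCS1 and IDI1 have 2 each. The other HMGCS1 window has 0, and the other IDI1 windows have 0 and 3, so these counts depend on the start chosen.

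Values of the cholesterol genes were on balance slightly higher in leaf-treated cells, and for most genes the difference was within the spread between arrays. The higher median of the 28 genes rested largely on 1 of the 3 leaf-treated arrays. On the deposited scale, that of the enzymes of synthesis did so only in part. The median log2 fold change (leaf-treated minus untreated) over the 28 genes was 0.13, where the median over all 19291 clusters was 0.011. The value was above 0 for 19 of 28 genes (67.9%), against 53.2% of all clusters. Without leaf-treated array 2 the median over the 28 genes was 0.024, with 15 of 28 above 0. Over the 17 enzymes of synthesis the median was 0.15 with all arrays. Without leaf-treated array 2 it was 0.086, with 11 of 17 above 0. Without untreated array 2 it was 0.10, with 12 of 17 above 0. The median of all clusters was 3.81, 3.75 and 3.83 on leaf-treated arrays 1, 2 and 3. On untreated arrays 1, 2 and 3 it was 3.71, 3.74 and 3.74. The median of the enzymes was not taken after other scalings, and the part that these array medians had in it was not tested. None of the 28 was called at an adjusted p under 0.05 from limma, a threshold that 0.00518% of all clusters passed, namely 1 cluster, of ID2. At an unadjusted p under 0.05 from limma, 2 of 28 genes (7.14%) were higher, where 3.87% of all clusters were, and 0 of 28 were lower, where 5.9% of all clusters were. The ordinary analysis of variance gave 3 members higher at that threshold, where it gave 2.48% of all clusters, and no adjusted call. No member passed the rule of the series design (unadjusted p under 0.05 and at least 1.5 fold), which 0.84% of clusters passed in either direction. The largest fitted changes were 0.31 for CYP51A1 and DHCR7 and -0.35 for SOAT1 on the log2 scale.

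The groups of arrays did not overlap for 5 of the 28 genes (17.9%), with the leaf-treated arrays on the higher side each time. Over all clusters 6.14% were of this kind. The opposite pattern, with each leaf-treated array below each untreated array, was seen for 0 of 28 members and for 7.41% of all clusters. After centring each array on its median, ACAT2 was the only gene of the 5 that stayed without overlap, and 2.70% of all clusters lay wholly higher. After quantile normalization 9 members did, among them ACAT2, IDI1, MVD and NPC1, and 6.96% of all clusters.

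The plot of each gene on each array orders the genes by their place in the pathway.

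**Figure D1:**
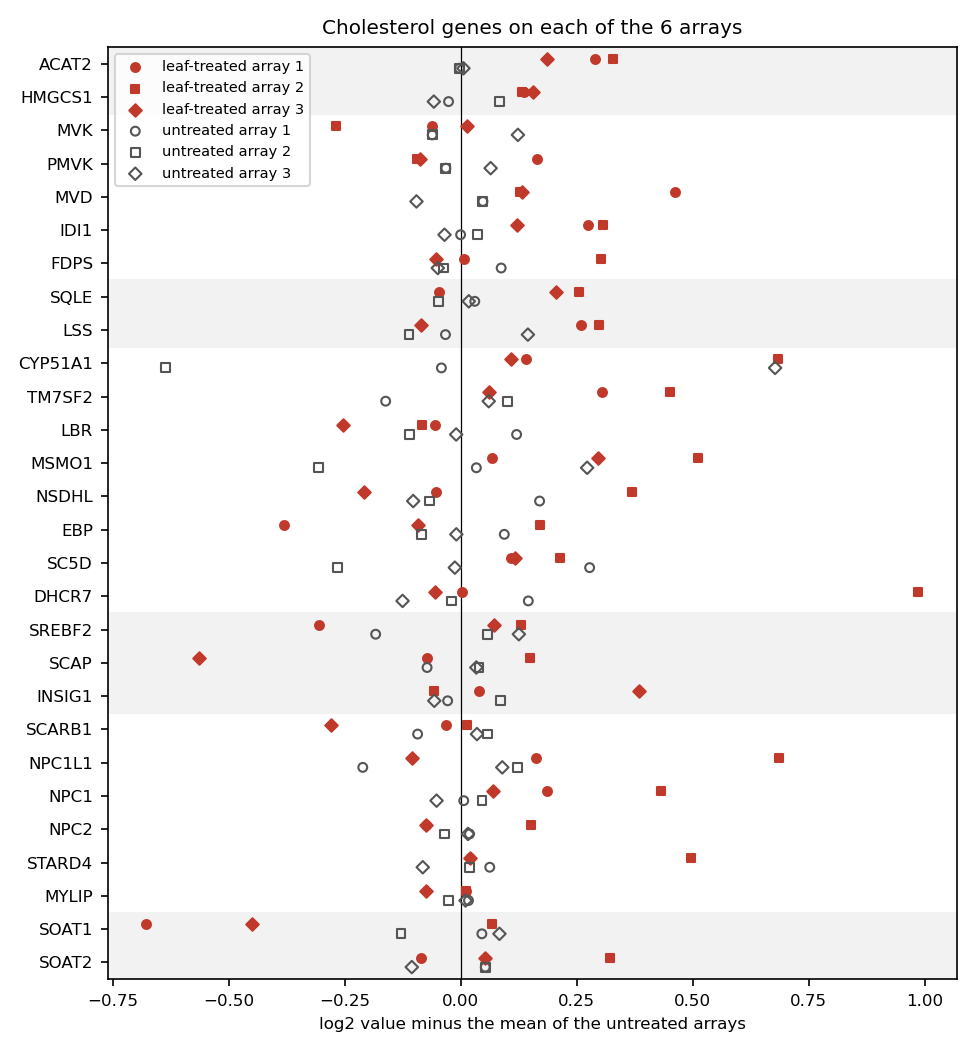
Log2 value of each of the 28 measured genes on each array, minus the mean of the 3 untreated arrays of that gene, with filled red symbols for leaf-treated arrays and open grey symbols for untreated arrays. Shaded bands separate the roles, from the first steps of synthesis at the top to esterification at the bottom, and the red squares of leaf-treated array 2 lie farthest right for 18 of the 28 genes.

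Of the enzymes of the first steps, ACAT2 had an unadjusted p under 0.05 and HMGCS1 did not. ACAT2, the cytosolic thiolase that joins acetyl-CoA units, had log2 values of 9.66, 9.69 and 9.55 on leaf-treated arrays 1, 2 and 3, against 9.36, 9.36 and 9.37 on the untreated arrays. All leaf-treated arrays lay above all untreated arrays, and the untreated arrays hardly differed from each other, with untreated arrays 1 and 2 holding the identical deposited value. ACAT2 thus differed by 0.27 ± 0.066 (SE) on the log2 scale (limma, adjusted p = 0.40), a fold of 1.20 with a 95% interval of 1.08 to 1.34. HMGCS1, which makes HMG-CoA, had 5.54, 5.54 and 5.56 in leaf-treated cells and 5.38, 5.49 and 5.35 in untreated cells. The leaf-treated values were nearly the same and lay just above the highest untreated value. The difference was 0.14 ± 0.066 (SE) on the log2 scale (limma, adjusted p = 0.51).

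Among the enzymes from mevalonate to farnesyl diphosphate, IDI1 and MVD had groups without overlap. IDI1, which isomerises isopentenyl diphosphate, had log2 values of 8.05, 8.08 and 7.90 on the leaf-treated arrays and 7.78, 7.81 and 7.74 on the untreated arrays. The lowest leaf-treated value lay above the highest untreated value by about the spread among the untreated arrays. IDI1 differed by 0.23 ± 0.074 (SE) on the log2 scale (limma, adjusted p = 0.48), or 1.18 fold with a 95% interval of 1.04 to 1.33. MVD, which makes isopentenyl diphosphate by decarboxylation, had 4.94, 4.60 and 4.61 in leaf-treated cells, against 4.52, 4.52 and 4.38 in untreated cells. Leaf-treated array 1 was well above the others here, and arrays 2 and 3 were close to the untreated range, in which arrays 1 and 2 again held an identical value. For MVD the difference was 0.24 ± 0.11 (SE) on the log2 scale (limma, adjusted p = 0.51), and 0.13 without leaf-treated array 1.

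The other enzymes of this segment had groups that overlapped. FDPS, which builds farnesyl diphosphate, had a log2 fold change of 0.085, and it was -0.023 without leaf-treated array 2. The mevalonate kinases MVK and PMVK had log2 fold changes of -0.11 and -0.0059. MVK averaged 3.22 on leaf-treated and 3.32 on untreated arrays, near the level of 3.28 below which 95% of olfactory receptor clusters lay. Olfactory receptors are not expected in hepatoma cells, and their clusters were used as a stand-in for background, since the values carry no detection calls.

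Squalene epoxidase SQLE, which catalyses a rate-controlling oxidation, had 9.16, 9.47 and 9.42 on the leaf-treated arrays and 9.24, 9.16 and 9.23 on the untreated arrays. Leaf-treated array 1 lay at the bottom of the untreated range, while arrays 2 and 3 lay above it. For SQLE the difference was 0.14 ± 0.094 (SE) on the log2 scale (limma, adjusted p = 0.60). LSS, which closes the rings to lanosterol, had a log2 fold change of 0.16, with leaf-treated array 3 inside the untreated range.

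From lanosterol to cholesterol, 6 of 8 measured enzymes had a log2 fold change above 0 and the groups of all 8 overlapped. DHCR7, which catalyses a closing reduction, had log2 values of 7.04, 8.02 and 6.98 on leaf-treated arrays 1, 2 and 3, and 7.18, 7.01 and 6.91 on the untreated arrays. Array 2 stood alone, 1.01 above the mean of leaf-treated arrays 1 and 3, which is 2.02 fold. Over all arrays the log2 fold change was 0.31, and without that array it was -0.027. CYP51A1, the lanosterol demethylase, had 4.95, 5.49 and 4.92 in leaf-treated cells and 4.77, 4.18 and 5.49 in untreated cells. The untreated arrays alone spanned more than the leaf-treated arrays did, and the 95% interval of its fold ran from 0.71 to 2.17.

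The sterol reductases TM7SF2 and LBR act on the same double bond, and LBR is also a receptor for lamin B in the nuclear envelope. TM7SF2 had a log2 fold change of 0.27 and LBR one of -0.13, and the difference between them was not tested. Log2 fold changes were 0.29 for the methylsterol oxidase MSMO1, 0.15 for the desaturase SC5D, 0.036 for NSDHL, which acts in the removal of methyl groups from the sterol ring, and -0.10 for the isomerase EBP. Without untreated array 2 those of MSMO1 and SC5D were 0.14 and 0.014. For the 17 measured enzymes of synthesis together the median was 0.15, with 13 above 0, and without leaf-treated array 2 it was 0.086, with 11 above 0.

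**Figure D2:**
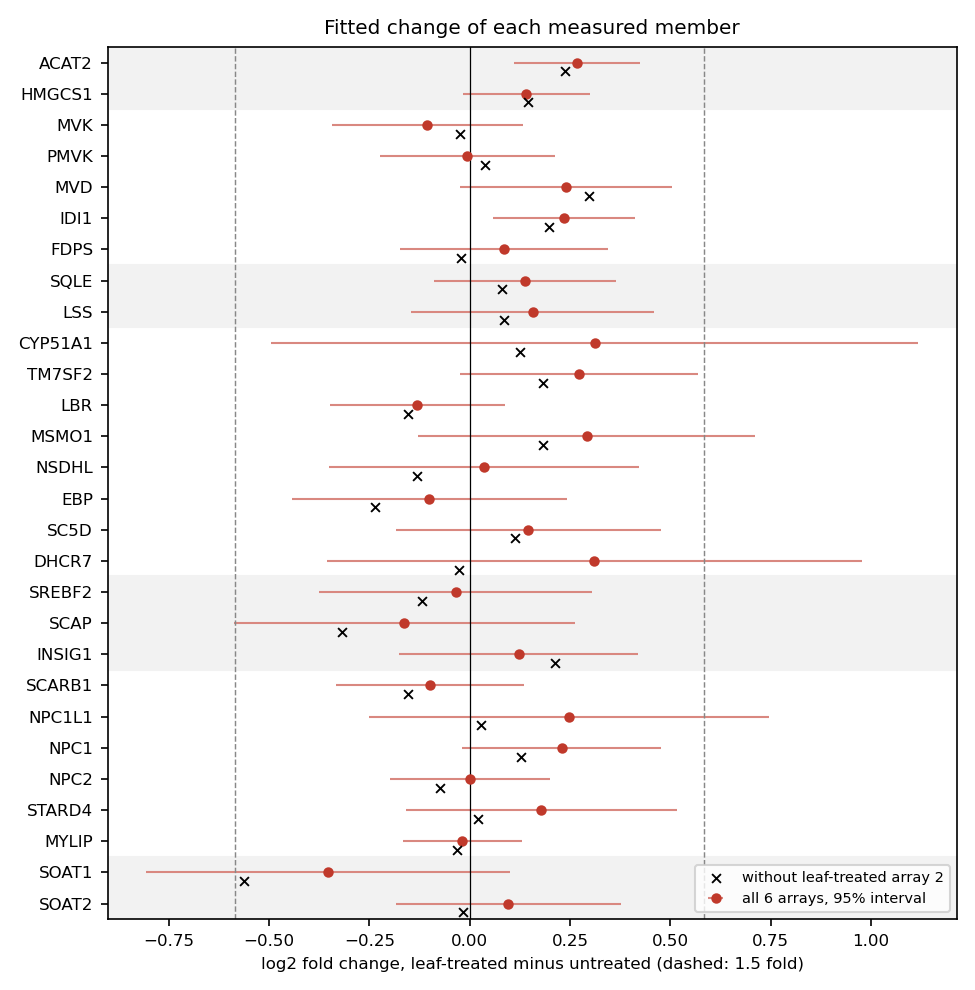
Fitted log2 fold change (leaf-treated minus untreated) of each of the 28 measured genes with its 95% interval from limma, and as a cross the value without leaf-treated array 2. The intervals of ACAT2 and IDI1 lie above 0, those of the other 26 include 0, and the dashed lines mark 1.5 fold.

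The regulators of the pathway showed no common direction. SREBF2 had log2 values of 3.60, 4.04 and 3.98 on the leaf-treated arrays and 3.73, 3.97 and 4.03 on the untreated arrays. The groups covered almost the same range. SREBF2 differed by -0.035 ± 0.14 (SE) on the log2 scale (limma, adjusted p = 0.93), with a 95% interval of 0.77 to 1.24 for the fold. SCAP, the escort of SREBP2, had 5.10, 5.32 and 4.61 in leaf-treated cells, against 5.10, 5.21 and 5.20 in untreated cells. Leaf-treated array 3 alone was low. INSIG1, which retains SCAP and is itself a target of SREBP2, had 3.08, 2.98 and 3.42 in leaf-treated cells and 3.01, 3.12 and 2.98 in untreated cells. Its mean lay below the background stand-in, so that its cluster gives little information on this gene.

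The log2 fold changes of SCAP and INSIG1 were -0.16 and 0.12, with limma adjusted p = 0.73 and 0.71. INSIG2, the paralogue of INSIG1, is outside the 30 genes and had 6.82, 7.25 and 6.92 in leaf-treated cells, against 6.77, 6.53 and 6.72 in untreated cells. All leaf-treated arrays lay above all untreated arrays. INSIG2 differed by 0.32 ± 0.13 (SE) on the log2 scale (limma, adjusted p = 0.51).

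Of the genes of uptake and intracellular transport, NPC1 was the only 1 of 6 whose groups did not overlap. NPC1, which exports cholesterol from lysosomes, had 5.15, 5.40 and 5.03 on the leaf-treated arrays, against 4.97, 5.01 and 4.91 on the untreated arrays. Leaf-treated array 3 exceeded the highest untreated array by only a small margin. The difference for NPC1 was 0.23 ± 0.10 (SE) on the log2 scale (limma, adjusted p = 0.51), and 0.13 without leaf-treated array 2. NPC2, the lysosomal partner of NPC1, had a mean of 8.44 in leaf-treated and 8.44 in untreated cells. The sterol carrier STARD4 had 5.73, 6.21 and 5.73 in leaf-treated cells and 5.77, 5.73 and 5.63 in untreated cells, so array 2 was the only leaf-treated array above the untreated range.

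NPC1L1, a cholesterol importer of the cell surface, had 5.03, 5.56 and 4.77 in leaf-treated cells and 4.66, 4.99 and 4.96 in untreated cells. Array 2 again stood above the rest, and the log2 fold change was 0.25 over all arrays and 0.028 without it. Log2 fold changes were -0.099 for the HDL receptor SCARB1 and -0.018 for MYLIP, a ubiquitin ligase that removes lipoprotein receptors.

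The acyltransferases that esterify cholesterol for storage differed between leaf-treated arrays. SOAT1 had 6.97, 7.71 and 7.20 on leaf-treated arrays 1, 2 and 3, against 7.69, 7.52 and 7.73 on the untreated arrays. Arrays 1 and 3 lay below all untreated arrays, and array 2 lay within their range. SOAT1 differed by -0.35 ± 0.19 (SE) on the log2 scale (limma, adjusted p = 0.54), and without leaf-treated array 2 by -0.56 (limma, adjusted p = 0.096). Without leaf-treated array 1 the difference was -0.19 (limma, adjusted p = 0.74). SOAT2 had a log2 fold change of 0.096, and -0.016 without array 2.

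Leaf-treated array 2 held the highest of the 6 values for 18 of the 28 genes (64.3%). It held the highest value for 18.2% of all clusters and for 23.0% of the 12839 clusters above the background stand-in. A tied highest value was counted for the first array, leaf-treated before untreated and in order of number, so the shares over clusters depend partly on that order. Leaf-treated array 2 lay above the mean of the other leaf-treated arrays for 23 of 28 genes (82.1%). It did so for 49.0% of all clusters and 60.1% of those above the background stand-in. Over the 28 genes the median gap was 0.24 on the log2 scale. That gap had a median of 0 over all clusters and of 0.065 over those above the background stand-in. The next largest gaps after DHCR7 were those of NPC1L1 at 0.66, SOAT1 at 0.63 and CYP51A1 at 0.56. ACAT2 and HMGCS1 differed little between array 2 and the other leaf-treated arrays, with gaps of 0.090 and -0.013, and MVD and MVK were lower on it, by gaps of -0.17 and -0.24.

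**Figure D3:**
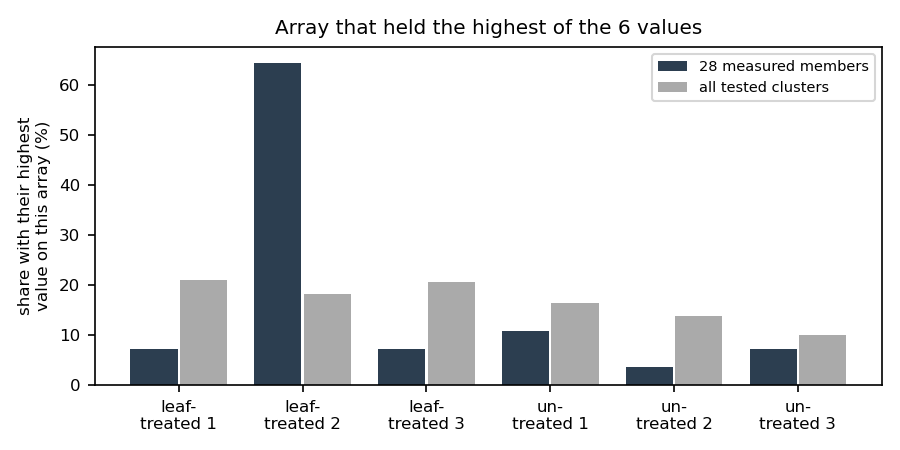
Share, in percent, of the 28 measured genes (dark bars) and of all 19291 tested clusters (grey bars) whose highest value of the 6 lay on each array. Leaf-treated array 2 held it for 64.3% of the genes and 18.2% of the clusters, while each other array held it for 3.57% to 10.7% of the genes. A tied highest value was counted for the first array from left to right.

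Per array, the median of the 28 genes relative to the untreated mean was 0.015, 0.23 and 0.016 on leaf-treated arrays 1, 2 and 3, and between -0.024 and 0.012 on the untreated arrays. For the 17 enzymes of synthesis it was 0.11, 0.30 and 0.060 on the leaf-treated arrays, and 0.030, -0.047 and -0.0096 on the untreated arrays. For the other 11 genes it was -0.031, 0.15 and -0.075 on the leaf-treated arrays, and 0.0064, 0.046 and 0.016 on the untreated arrays. Without array 2, ACAT2 and IDI1 still had an unadjusted p under 0.05 from limma on the higher side, as did SOAT1 on the lower. In that setting 8.28% of all clusters were higher and 11.7% lower at this threshold. The spread of the genes was also larger in the leaf-treated group, with a median SD of 0.19 on its 3 arrays and 0.086 on the 3 untreated arrays. Over all clusters these medians were 0.14 and 0.087.

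**Figure D4:**
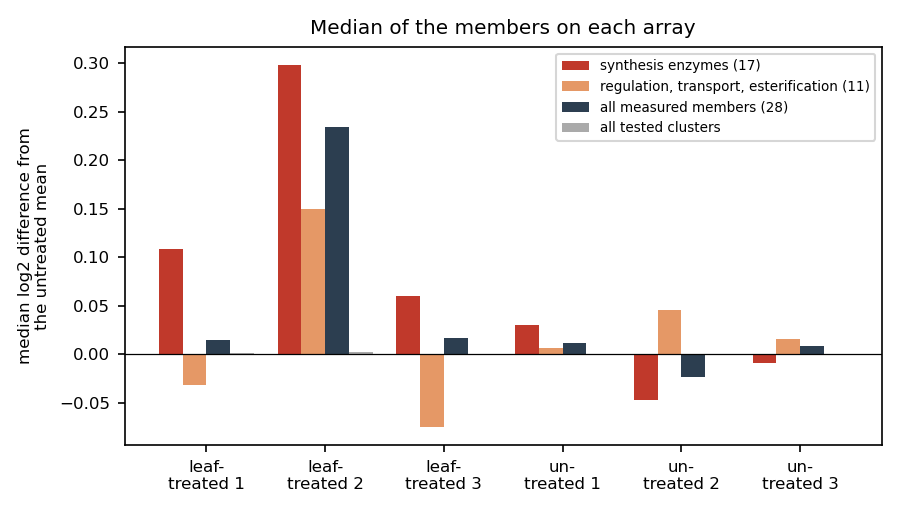
Median log2 difference from the mean of the untreated arrays, per array, for the 17 enzymes of synthesis (red), the 11 genes of regulation, transport and esterification (orange), all 28 genes (dark) and all tested clusters (grey). The bars of leaf-treated array 2 are the highest, at 0.30 for the enzymes and 0.15 for the other 11 genes, and the all-cluster medians stay near 0. On leaf-treated arrays 1 and 3 the medians are 0.11 and 0.060 for the enzymes, and -0.031 and -0.075 for the other 11 genes.

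Hepatocyte markers were well expressed on all arrays, with the 9 measured of 10 above the background stand-in, and 1 of the 9 had a log2 fold change above 0. The 6 fibroblast markers summed to log2 values of 19.3 to 20.5 on leaf-treated arrays and 19.1 to 19.7 on untreated arrays. For the 4 endothelial markers the sums were 12.3 to 13.3 in leaf-treated and 12.5 to 12.9 in untreated cells, and for 4 measured of 5 blood markers 22.8 to 23.1 and, in untreated cells, 23.0 to 23.2. PTPRC and CD3E of the blood markers and DCN and LUM of the fibroblast markers lay below the background stand-in. The other 4 of the 6 fibroblast markers lay above it, as did LYZ and CD68 of the blood markers and 1 of the 4 endothelial markers. The 3 measured squamous markers summed to 12.1, 10.7 and 12.0 on leaf-treated arrays 1, 2 and 3, and to 10.8, 10.5 and 11.1 on the untreated arrays. These sums were high on arrays 1 and 3, and not on array 2, where the cholesterol genes stood higher. The array weight from limma was 0.46 for leaf-treated array 2, against 0.64 to 0.87 for the other leaf-treated arrays and 1.15 to 2.21 for the untreated arrays. The part that these differences between arrays had in the values of the cholesterol genes was not tested.

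Genes of neighbouring pathways gave no adjusted call in the same fit. Besides the 28, 15 genes measured of 20 listed process or regulate SREBP, or use its pathway. Of these 15, INSIG2 was higher and 0 were lower at an unadjusted p under 0.05 from limma. The median log2 fold change was 0.033. Over all clusters 3.87% were higher and 5.9% lower at that threshold, which is the share to set beside each list here. TMEM97 stands in this list and in the next, and GGPS1 in this list and among the isoprenoid branches. Leaf-treated array 2 held the highest value for 7 of these 15 genes, against 18.2% of all clusters. In the lists that follow it did so for 9 of 17 genes around SREBP1 and 5 of 9 of sterol efflux. It did so for 4 of 11 genes of bile acid synthesis and 3 of 10 of the isoprenoid branches. Of 17 genes listed around SREBP1 and fatty acid synthesis, which include MVP and TMEM97 from outside that pathway, ACLY, which supplies cytosolic acetyl-CoA, was higher at that threshold. FASN, the fatty acid synthase, and GPAM, which starts glycerolipid synthesis, were lower. ACLY had 8.33, 8.68 and 8.36 in leaf-treated cells and 8.22, 8.18 and 8.19 in untreated cells. FASN had 4.95, 5.19 and 4.87 in leaf-treated cells, against 5.33, 5.28 and 5.25 in untreated cells. Neither gene's groups overlapped, and the directions were opposite, with log2 fold changes of 0.26 and -0.29 and adjusted p = 0.51 and 0.50 from limma. GPAM ranged from 7.50 to 7.77 in leaf-treated cells, against 7.97 to 8.09 in untreated cells, a difference of -0.40 ± 0.088 (SE) on the log2 scale (limma, adjusted p = 0.38).

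Among 9 measured genes of sterol efflux, ABCG8, a subunit of the transporter that moves sterols into bile, was lower at an unadjusted p under 0.05, with 4.58, 4.72 and 4.61 in leaf-treated cells, against 4.92, 4.91 and 4.80 in untreated cells. The leaf-treated arrays all lay below the untreated arrays, with a difference of -0.24 ± 0.072 (SE) on the log2 scale (limma, adjusted p = 0.47). Among 11 genes of bile acid synthesis and its control, NR0B2, which encodes the repressor SHP, was higher at that threshold, by 0.44 ± 0.15 (SE) on the log2 scale (limma, adjusted p = 0.50). Of 10 measured genes in other branches that use isoprenoids, such as prenylation and ubiquinone synthesis, 0 passed that threshold in either direction and 2 had a log2 fold change above 0. The median over these 10 was -0.052, where that of the 17 enzymes of cholesterol synthesis was 0.15 over all arrays and 0.086 without leaf-treated array 2.

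The precision of 3 arrays a group leaves room for changes that were not called. The 95% interval of the fold lay within 1.5 fold in either direction for 22 of the 28 genes. It reached past 1.5 fold for CYP51A1, DHCR7, MSMO1, NPC1L1, SCAP and SOAT1. The 22 include MVK and INSIG1, whose means over all arrays lay below the background stand-in. For these genes a narrow interval does not bound the change of the transcript. Identical values on different arrays were frequent in the deposited table, with 12 of 28 genes (42.9%) and 41.1% of all clusters repeating a value on at least 2 arrays.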

How the data were processed

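HepG2 RNA was measured on the Affymetrix Human Gene 1.0 ST platform, with 1 array for each of 3 leaf-treated and 3 untreated samples. The authors deposited log2 expression values for all arrays in a table. GCOS, Partek and RMA appear in the submitters' processing notes, with no versions or RMA options stated. Of 33297 transcript clusters, 4468 were at exactly 0 on all arrays and were dropped. The 19291 clusters with exactly 1 symbol in the platform annotation, standing for 18372 genes, were tested. Each of the 28 measured members had a single such cluster, while a further row of CYP51A1 at 0 and rows that FDPS and HSD17B7 share with pseudogenes were not used. The groups were set against each other in limma 3.58.1 (R 4.3.3, lmFit and eBayes, no covariate) on the deposited log2 values, leaf-treated minus untreated, with Benjamini-Hochberg adjustment over all clusters and a threshold of 0.05. The script was tested on simulated arrays. The 30 members and the other gene lists were chosen with earlier results of these data known. Every array is printed for members with an unadjusted p under 0.05, for members whose groups did not overlap, and for SREBF2, SCAP and INSIG1, and SQLE, DHCR7, SOAT1, CYP51A1, STARD4 and NPC1L1 were added after their values were seen. In the other lists at most the 3 genes with the smallest p were named. Promoter sequences came from RefSeq, build GRCh38.p14. The labels call the replicates biological without saying that they came from separate cultures, so the p-values reflect the spread among these samples alone, which may be technical. The number of arrays limits the precision. Alternatives were the scaling (quantile, or centring on the median of the array), the filter on dim clusters, limma with a trend in intensity and robust shrinkage or with weights for arrays, ordinary analysis of variance, averaging clusters by gene, a block for the replicate number, and the omission of single arrays. The overlap of groups after scaling, and the counts under the series rule, were added after seeing the data.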

Additional observations from a re-analysis of the deposited data

How the results depend on the processing

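No member was called at an adjusted p under 0.05 in any of the 14 other settings, and the smallest adjusted p of a member was 0.096 (SOAT1 without leaf-treated array 2). The count of calls over all clusters, 1 as deposited, was 8 after quantile normalization, 3 after centring and with array weights, 4 without dim clusters, 2 with an intensity trend and with gene means, and 0 by analysis of variance, with the replicate block and without any 1 array. Deviations of same-numbered arrays from their group means had correlations of -0.11, -0.18 and 0.12. Those of other pairs of arrays ran from -0.19 to 0.27. With 3 arrays a group these values cannot decide whether same-numbered samples were paired. Members higher at an unadjusted p under 0.05 numbered 7 after quantile normalization, 1 after centring and 4 with array weights. In these settings 4.74%, 1.95% and 5.48% of all clusters were higher. When 1 array was left out they numbered 1 (without untreated array 3) to 5 (without leaf-treated array 3). In those 2 settings 2.62% and 3.61% of all clusters were higher. ACAT2 was among the higher members in each setting, and IDI1 in each except centring and leaving out untreated array 3. SOAT1 was the only lower member, with 1 such call with array weights (8.11% of all clusters) and 0 to 1 without 1 array. The 1 was without leaf-treated array 2, where 11.7% of all clusters were lower. Members without overlap numbered 9 higher and 1 lower after quantile normalization, where 6.96% of all clusters lay wholly higher and 9.83% wholly lower, and 1 and 1 after centring, where 2.70% and 17.9% did. Of all clusters with such a p, 39.6% were higher as deposited, 46.8% after quantile normalization and 16.7% after centring. The rule of the series design was passed by 101 clusters by analysis of variance and by 111 (without untreated array 1) to 490 (without leaf-treated array 2) when 1 array was left out.

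The median log2 fold change over members was 0.16 after quantile normalization, 0.066 after centring and 0.024 (without leaf-treated array 2) to 0.14 without 1 array. Direction was kept in every setting by 15 members. Leaving out some 1 array moved the value by over 1.5 times for 24 members, and not for ACAT2, HMGCS1, IDI1 and TM7SF2. It turned for NSDHL (-0.029) and NPC2 (-0.064) after centring, EBP (0.0073) and SCARB1 (0.022) after quantile normalization, and PMVK (0.010) and NPC2 (-0.027) with array weights. Without 1 array the values ran from -0.091 to 0.038 for PMVK, -0.023 to 0.15 for FDPS, -0.0064 to 0.65 for CYP51A1, -0.13 to 0.16 for NSDHL, -0.24 to 0.039 for EBP, -0.027 to 0.49 for DHCR7, -0.13 to 0.10 for SREBF2, -0.32 to 0.038 for SCAP, -0.0091 to 0.21 for INSIG1, -0.075 to 0.038 for NPC2, -0.033 to 0.01 for MYLIP and -0.016 to 0.19 for SOAT2. For those that kept their sign they ran from -0.19 to -0.07 for LBR, 0.086 to 0.28 for LSS, 0.14 to 0.43 for MSMO1, 0.13 to 0.30 for MVD, -0.16 to -0.024 for MVK, 0.13 to 0.31 for NPC1, 0.028 to 0.42 for NPC1L1, 0.014 to 0.29 for SC5D, -0.16 to -0.0094 for SCARB1, -0.56 to -0.19 for SOAT1, 0.079 to 0.23 for SQLE and 0.019 to 0.26 for STARD4. The causes were not tested.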
